A study of Xenopus laevis with 74 samples.

Results

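The neural lineage between stages 9 and 10.5 was followed in 6 of the 74 libraries of the series, 3 at stage 10.5 and 3 at stage 9. These libraries were chosen by their labels alone, neural lineage at either stage. The series measured RNA from Xenopus laevis explants in 4 lineages, from stage 9 to stage 13. The explants are animal caps, the roof of the blastula, whose cells can still form any germ layer, and they were cut at stage 8.5. Both neural groups carry the label of 100 ng/uL noggin, and no genetic change is labelled. The study takes stage 9 as time zero, so stage 10.5 explants were in the agent for longer. Stage and length of exposure thus cannot be told apart. The study's methods give the dose in a smaller unit than the label does. The epidermal lineage, used for comparison, is the untreated explant, ventral mesoderm explants received BMP4/7, and endoderm explants received Activin. Each library is a pool of explants, and embryos of a day came from a single frog. For sequencing, the neural explants were cultured in a low calcium magnesium medium with albumin and the other lineages were not, so Noggin and medium cannot be told apart wherever lineages are compared.

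Noggin is a secreted protein that binds BMP ligands and keeps them from their receptors. Ectoderm in which BMP signalling is blocked becomes neural, and ectoderm left with its own BMP becomes epidermis. Between the blastula at stage 9 and the early gastrula at stage 10.5, messages stored in the egg are being cleared while the zygotic genome, which starts to be transcribed shortly before, takes over. X. laevis is an allotetraploid, and most of its genes exist as an L and an S copy (homeologs).

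Between 14507679 and 19175839 reads per neural library were counted on genes, and between 11938338 and 23215739 over the 74 libraries. Pearson correlations of depth-scaled log counts were 0.931 to 0.935 among the stage 10.5 libraries and 0.927 to 0.931 among the stage 9 libraries, against 0.772 to 0.864 between the stages. By these correlations no library stood apart from its group. Levels below are TPM, the share of transcripts scaled to a fixed total, with L and S summed, fold changes are log2 values of stage 10.5 over stage 9 fitted on counts with their standard error (SE), and a gene that rose or fell had an adjusted p of at most 0.05 by edgeR's quasi-likelihood test with Benjamini-Hochberg adjustment. In pooled explants, fewer cells of a type and less RNA per cell cannot be told apart.

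The label of ectodermal explants was set against marker genes. Markers of animal cap ectoderm (foxi2, sox3, pou5f3.3, cdh1 and krt8) summed to between 1201 and 1482 TPM at stage 10.5 and between 2574 and 2840 TPM at stage 9. At stage 10.5 this sum was 1237 to 1275 TPM in epidermal, 1038 to 1292 TPM in ventral mesoderm and 582 to 721 TPM in endoderm explants. Neural progenitor markers (sox2, sox3, otx2, zic1, foxd4l1.1 and ncam1) summed to between 1072 and 1285 TPM at stage 10.5 and between 1021 and 1251 TPM at stage 9, most of it sox3 in both groups. Epidermal explants overlapped with these sums, at 947 to 1184 TPM at stage 10.5 and 928 to 1323 TPM at stage 9. Endoderm explants overlapped at stage 10.5 too, at 966 to 1157 TPM, and had 678 to 824 TPM at stage 9. Ventral mesoderm explants had 758 to 891 TPM at stage 10.5 and 570 to 1069 TPM at stage 9. The 6 vegetal endoderm markers reached 26.5 to 85.9 TPM at stage 10.5 and 16.7 to 39.0 TPM at stage 9, against 2556 to 3167 TPM in endoderm explants at stage 10.5. The 1 blood marker with a TPM value stayed at or below 0.31 TPM in all 6 libraries. The pair of notochord and muscle markers, col2a1 and actc1, summed to between 4.82 and 16.2 TPM at stage 10.5 and at most 0.08 TPM at stage 9, and epidermal explants at stage 10.5 had 0.63 to 0.90 TPM. Mesoderm markers (t, vegt, tbx6, myod1 and wnt8a) summed to 154 to 171 TPM at stage 10.5, against 22.4 to 107 TPM in epidermal explants. At stage 9 they already summed to 122 to 143 TPM, against 61.5 to 119 TPM in epidermal explants. Most of the neural sum was vegt at both stages. Organizer markers summed to 96.7 to 121 TPM and epidermis markers to 60.1 to 127 TPM at stage 10.5, against 94.3 to 140 and 153 to 490 TPM in epidermal explants. At stage 9 the neural sums were 202 to 320 and 122 to 132 TPM, against 93.7 to 237 and 139 to 205 TPM in epidermal explants. These sums give the material as animal cap tissue with very little endoderm or blood RNA at stage 10.5. The ectoderm sum does not set neural explants apart from ventral mesoderm ones. A small muscle signal and a mesoderm sum stood above epidermal explants, and their part in any other result was not tested.

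The comparison of stages asks how the transcriptome moves as cells leave pluripotency under Noggin. Of 27424 genes tested with L and S apart, 3895 rose and 4027 fell, 14.2% and 14.7%. With L and S summed, 3003 of 21146 genes rose and 3115 fell, again 14.2% and 14.7%, and the median log2 fold change over all of them was 0.09. Same-numbered libraries of the 2 stages deviated together, and with the replicate number as a block 6585 genes rose and 6523 fell with L and S apart (24.0% and 23.8%), and 10143 (48.0%) changed with L and S summed. On TPM with limma the split moved to 2561 genes higher and 4941 lower. Without stage 9 replicate 2 the genes that rose numbered 2569.

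The interval is made of 2 steps, stage 9 to 10 and stage 10 to 10.5. At stage 10, 883 genes (3.22%) differed from stage 9, 414 higher (1.51%) and 469 lower (1.71%), and at stage 10.5, 463 genes (1.69%) differed from stage 10, 173 higher (0.631%) and 290 lower (1.06%). Each step on its own was thus resolved for far fewer genes than the whole interval. With the replicate block the steps had 6946 (25.3%) and 8249 genes (30.1%), and with L and S summed 723 (3.42%) and 431 (2.04%). The counts also hung on single libraries. The step to stage 10 had 184, 39 and 131 genes without stage 9 replicates 1, 2 and 3, and 148, 23 and 1151 without stage 10 replicates 1, 2 and 3. The step to stage 10.5 had 28, 13 and 20 genes without stage 10 replicates 1, 2 and 3, and 22, 7 and 20 without stage 10.5 replicates 1, 2 and 3.

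**Figure D1:**
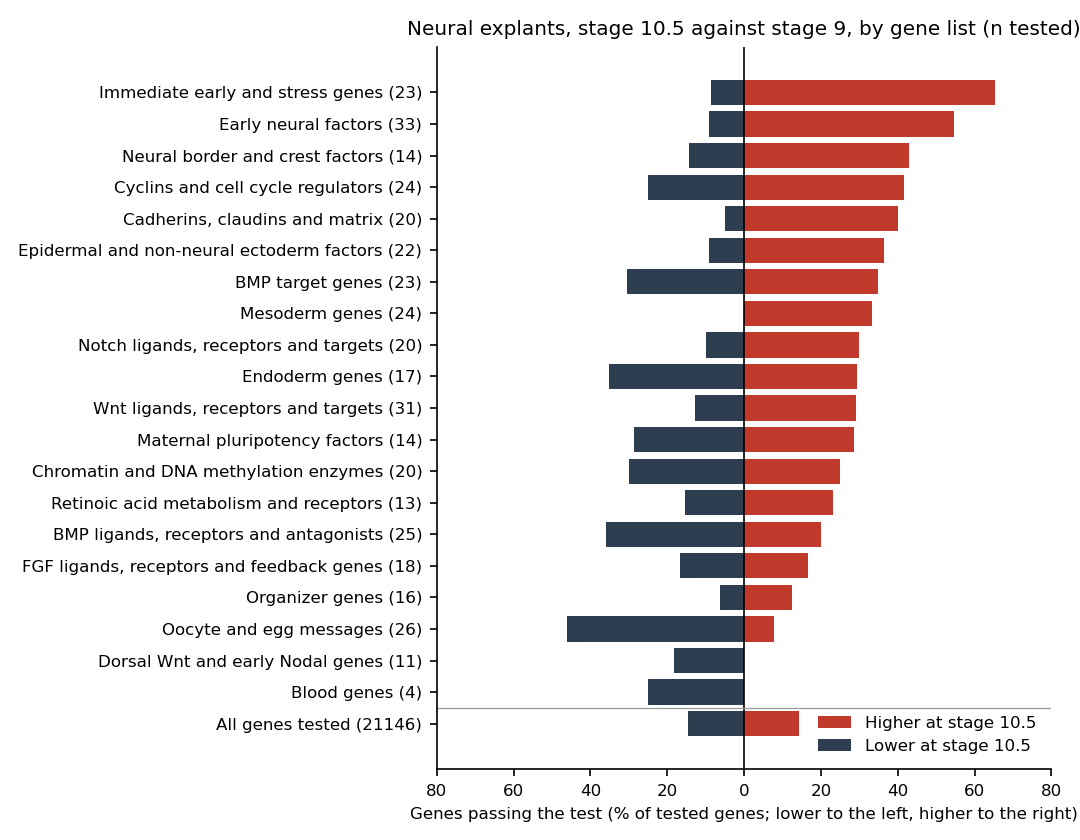
Share of the tested genes of each of 20 lists that were higher (right, red) or lower (left, dark) at stage 10.5 than at stage 9 in neural explants, with all 21146 genes tested (14.2% higher, 14.7% lower) in the bottom row. Immediate early and stress genes (15 of 23) and early neural factors (18 of 33) lead the lists on the right, and oocyte and egg messages (12 of 26 lower) reach farthest to the left.

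The listed pluripotency factors, maternal messages among them, did not move as a group. Of 14 tested, 4 rose and 4 fell (14.2% and 14.7% of all genes), with a median log2 fold change of 0.12. The Pou5f3 genes, frog relatives of the mammalian pluripotency factor Oct4, moved in opposite directions. The maternal member pou5f3.3 had 141, 172 and 181 TPM at stage 10.5, against 1178, 1227 and 1123 TPM at stage 9, a log2 fold change of -2.53 (SE 0.10, edgeR adjusted p = 1.1e-05). pou5f3.1 had 327, 347 and 229 TPM at stage 10.5, against 78.0, 40.5 and 60 TPM at stage 9 (log2 fold change 2.6, SE 0.25, edgeR adjusted p = 0.00032). pou5f3.2, the member with the highest level at stage 10.5, had 1724, 1998 and 1304 TPM there, against 937, 518 and 593 TPM at stage 9 (1.56, SE 0.24, edgeR adjusted p = 0.0029). In none of the 3 did the libraries of the 2 stages overlap, so the fall of pou5f3.3 stood beside a rise of both other members.

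foxi2, a maternal activator of ectodermal genes, had 49.6, 124 and 118 TPM at stage 10.5, against 456, 574 and 587 TPM at stage 9 (-2.21, SE 0.31, edgeR adjusted p = 0.0021). Replicate 1 was the lowest library at both stages. lin28a, an RNA-binding protein that blocks let-7 maturation, had 103, 157 and 97.0 TPM at stage 10.5, against 32.5, 17.4 and 23.6 TPM at stage 9 (2.76, SE 0.28, edgeR adjusted p = 0.0003). The zinc finger factor sall4 rose as well, by 1.69 (SE 0.27, edgeR adjusted p = 0.003). sox3, a SoxB1 factor shared by pluripotent and neural cells, had 740, 837 and 678 TPM at stage 10.5, against 1050, 750 and 760 TPM at stage 9, and the groups overlapped (0.09, SE 0.14, edgeR adjusted p = 0.69). vegt, the maternal T-box factor of the vegetal pole, had 137, 150 and 137 TPM at stage 10.5, against 120, 138 and 136 TPM at stage 9 (0.23, SE 0.14, edgeR adjusted p = 0.27).

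Oocyte and egg messages fell more often than they rose. Of 26 tested, 12 fell and 2 rose, against 14.7% and 14.2% of all genes, with a median of -0.60. cpeb1, which controls the poly(A) tails of stored messages, had 4.62, 4.77 and 5.34 TPM at stage 10.5, against 111, 210 and 155 TPM at stage 9 (-4.76, SE 0.26, edgeR adjusted p = 5.9e-05). btg4, which brings the deadenylase to maternal messages in mouse eggs, had 16.2, 21.4 and 24.9 TPM at stage 10.5, against 178, 286 and 234 TPM at stage 9 (-3.21, SE 0.25, edgeR adjusted p = 0.00011). Both changed by far more than their libraries spread. mos, the kinase that arrests the egg in meiosis, fell by 2.18 (SE 0.17, edgeR adjusted p = 0.00011), the egg coat gene zpd fell by 2.19 (SE 0.19, edgeR adjusted p = 0.00015) and zar1l fell by 1.94 (SE 0.22, edgeR adjusted p = 0.00046).

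Other stored messages were still there. wee2, the oocyte form of the Wee1 kinase, had 94.9, 186 and 244 TPM at stage 10.5, against 268, 265 and 295 TPM at stage 9 (-0.40, SE 0.29, edgeR adjusted p = 0.34), apart in TPM but not past the test. h1foo, the linker histone of the oocyte, had 204, 537 and 827 TPM at stage 10.5, against 791, 1146 and 1421 TPM at stage 9, levels that cover its S copy alone (-0.98 over both copies, SE 0.45, edgeR adjusted p = 0.16). With the replicate block its adjusted p was 0.045, and replicate 1 was lowest and replicate 3 highest at both stages. The members named thus ranged from messages nearly gone by stage 10.5 to messages still abundant.

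Cell cycle genes changed in both directions. Of 24 tested, 10 rose and 6 fell (14.2% and 14.7% of all genes), with a median of 0.19. The embryonic cyclins were among the lower ones. ccnb5 had 4.56, 5.3 and 11.7 TPM at stage 10.5, against 319, 547 and 516 TPM at stage 9 (-5.74, SE 0.45, edgeR adjusted p = 0.00026). ccnb1 had 152, 253 and 488 TPM at stage 10.5, against 1474, 2099 and 2180 TPM at stage 9 (-2.43, SE 0.44, edgeR adjusted p = 0.0093). ccna1 had 407, 81.4 and 486 TPM at stage 10.5, against 2425, 2221 and 2644 TPM at stage 9 (-2.83, SE 0.60, edgeR adjusted p = 0.019). No library of stage 10.5 reached any library of stage 9 in these 3 cyclins, though within stage 10.5 their levels spread widely. ccna2, the cyclin A of later cycles, had 880, 1140 and 1044 TPM at stage 10.5, against 1200, 1256 and 1183 TPM at stage 9 with no change in counts (edgeR adjusted p = 0.99), although its TPM were lower in all 3 stage 10.5 libraries. Among the genes that rose were ccnd1, the G1 cyclin, at 47.8, 67.4 and 59.9 TPM against 7.72, 2.04 and 4.67 TPM (3.93, SE 0.51, edgeR adjusted p = 0.0013), and wee1, which delays entry into mitosis (2.33, SE 0.20, edgeR adjusted p = 0.00015). The call of ccna1 was lost with the replicate block (edgeR adjusted p = 0.076) and without stage 9 replicate 1 or 3 or stage 10.5 replicate 1 (adjusted p up to 0.063).

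Genes known as BMP targets split. Of 23 tested, 7 fell and 8 rose, against 14.7% and 14.2% of all genes, with a median of 0.28. The members that fell were ventx2.1, ventx2.2, ventx1.1, ventx1.2, bambi, id2 and id3. The Ventx genes are homeobox repressors that keep ventral and pluripotent character. ventx2.1 had 19.1, 23.6 and 25.8 TPM at stage 10.5, against 531, 447 and 403 TPM at stage 9 (-4.28, SE 0.15, edgeR adjusted p = 8.9e-06). ventx2.2 had 2.44, 5.24 and 2.19 TPM at stage 10.5, against 88.1, 55.7 and 61.7 TPM at stage 9 (-4.03, SE 0.35, edgeR adjusted p = 0.00017). ventx1.2 had 9.74, 4.14 and 9.78 TPM at stage 10.5, against 37.5, 15.1 and 22.3 TPM at stage 9 (-1.72, SE 0.44, edgeR adjusted p = 0.019). All 3 were lower in every library of stage 10.5. ventx1.1 was low at both stages, with 4.96, 5.90 and 7.99 TPM at stage 10.5, against 10.9, 7.56 and 10.3 TPM at stage 9, and these levels overlapped although its counts fell (-2.09, SE 0.53, edgeR adjusted p = 0.019). The ventx1.1 call was lost without stage 9 replicate 1 or stage 10.5 replicate 1 or 2 (adjusted p up to 0.063), and the ventx1.2 call without stage 9 replicate 1 or stage 10.5 replicate 2 (up to 0.066).

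id3 and bambi fell as well. id3, a helix-loop-helix protein that blocks other such factors, had 99.5, 120 and 105 TPM at stage 10.5, against 366, 272 and 327 TPM at stage 9 (-1.35, SE 0.14, edgeR adjusted p = 0.0003). bambi, a receptor-like protein without kinase that dampens BMP signalling, had 15.1, 16.6 and 18.6 TPM at stage 10.5, against 81.8, 70.8 and 78.4 TPM at stage 9 (-1.90, SE 0.16, edgeR adjusted p = 0.00016). The inhibitory smad7 had 7.97, 7.4 and 7.91 TPM at stage 10.5, against 7.62, 4.63 and 6.91 TPM at stage 9 (0.60, SE 0.27, edgeR adjusted p = 0.13, and 0.0067 with the replicate block). The homeobox gene msx1 had 16.6, 4.43 and 9.18 TPM at stage 10.5, against 11.2, 6.67 and 9.99 TPM at stage 9, with overlapping groups (0.43, SE 0.49, edgeR adjusted p = 0.57).

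The members that rose were gata3, gata2, smad6.2, id4, dlx3, hes4, dlx5 and hes1. gata2, a factor of ventral ectoderm and blood, had 2.02, 2.01 and 2.14 TPM at stage 10.5, against 0.16, 0.27 and 0.16 TPM at stage 9 (3.36, SE 0.53, edgeR adjusted p = 0.0022). gata3 had 4.27, 1.18 and 1.48 TPM at stage 10.5, against 0.23, 0.11 and 0.15 TPM at stage 9 (3.55, SE 0.68, edgeR adjusted p = 0.0054). Both stayed at a few TPM, while gata2 had 163, 3.98 and 24.6 TPM in epidermal explants at stage 10.5. hes4, a Hes repressor that is also a Notch and neural border gene, had 123, 138 and 95.9 TPM at stage 10.5, against 34.7, 46.4 and 44.2 TPM at stage 9 (1.55, SE 0.17, edgeR adjusted p = 0.00043). dlx3, an ectodermal homeobox gene, rose by 1.66 (SE 0.49, edgeR adjusted p = 0.036), and its call held only when stage 9 replicate 1 was the library left out (adjusted p up to 0.1 without another library). The call of id4 also held only without that library, and that of smad6.2 was lost without any 1 library (edgeR adjusted p up to 0.13 for both).

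**Figure D2:**
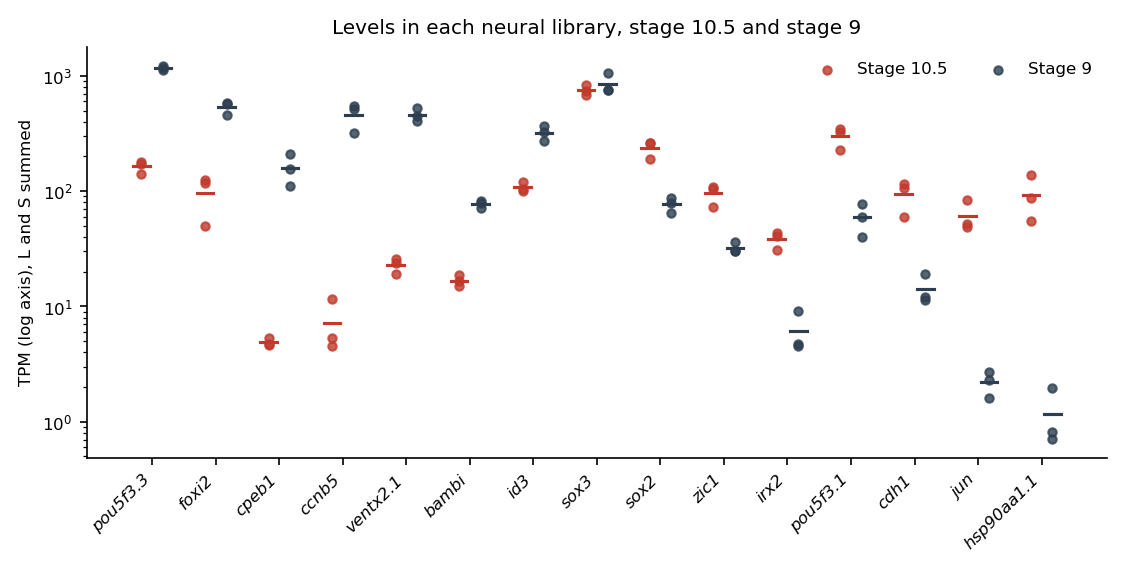
TPM on a log axis of 15 genes in each neural library, stage 10.5 (red, left of each gene) and stage 9 (dark, right), points for the 3 libraries of a stage and bars for their means. The stages are apart in every gene shown but sox3, with pou5f3.3, foxi2, cpeb1, ccnb5, ventx2.1, bambi and id3 lower at stage 10.5 and sox2, zic1, irx2, pou5f3.1, cdh1, jun and hsp90aa1.1 higher. All but sox3 had passed the test between the stages, and the share of all genes without overlap was not counted.

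Among BMP ligands, receptors and antagonists 5 of 25 rose and 9 fell (14.2% and 14.7% of all genes), with a median of -0.50. Of the ligands, bmp2 had 4.12, 6.04 and 6.08 TPM at stage 10.5, against 28.5, 30.4 and 31.8 TPM at stage 9 (-1.94, SE 0.20, edgeR adjusted p = 0.00033). bmp4 had 80.9, 101 and 93.3 TPM at stage 10.5, against 47.6, 47.0 and 62.5 TPM at stage 9 (0.87, SE 0.17, edgeR adjusted p = 0.0058). admp2, a BMP-like ligand, had 101, 134 and 154 TPM at stage 10.5, against 4.41, 9.31 and 6.42 TPM at stage 9 (4.48, SE 0.30, edgeR adjusted p = 8.4e-05). The ligands thus changed in both directions, with no overlap between stages in any of these 3. bmp7.2 had 601, 528 and 451 TPM at stage 10.5, against 512, 458 and 444 TPM at stage 9, overlapping levels at the edge of the threshold (0.43, SE 0.14, edgeR adjusted p = 0.049). Its call was lost when any library but stage 10.5 replicate 3 was left out (adjusted p up to 0.14), and its L copy rose (0.53, edgeR adjusted p = 0.024) while its S copy fell (-0.91, edgeR adjusted p = 0.013).

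Inside the cell, the BMP signal transducer smad1 had 66.7, 112 and 99.2 TPM at stage 10.5, against 155, 215 and 164 TPM at stage 9 (-0.72, SE 0.19, edgeR adjusted p = 0.024). Its call was lost without stage 9 replicate 2 or 3 or stage 10.5 replicate 1 (up to 0.084). gtpbp2, a GTP-binding protein, fell by 1.17 (SE 0.14, edgeR adjusted p = 0.0006). dand5, a secreted antagonist of the Cerberus family, had 109, 254 and 273 TPM at stage 10.5, against 707, 645 and 609 TPM at stage 9 (-1.42, SE 0.29, edgeR adjusted p = 0.011, and 0.085 with the replicate block). chrd, the organizer's BMP antagonist, was at 0.21, 1.44 and 0.88 TPM at stage 10.5, against 0.05, 1.53 and 0.27 TPM at stage 9 (0.74, SE 1.16, edgeR adjusted p = 0.68, and 0.05 with the replicate block).

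Early neural factors rose more often than any other list but the stress genes. Of 33 tested, 18 rose and 3 fell (14.2% and 14.7% of all genes), with a median of 1.2. Untreated epidermal explants had 10 of the 33 higher and 3 lower (11.7% and 14.2% of all genes there). The change passed the test for a difference between these lineages in 0 of the 33, against 0.0473% of all genes. On simulated data this test recovered 10.4% of 2-fold and 50% of 4-fold differences, so a factor not called can still differ. sox2, the SoxB1 factor of neural progenitors, had 191, 260 and 261 TPM at stage 10.5, against 64.2, 78.5 and 87.3 TPM at stage 9 (1.87, SE 0.18, edgeR adjusted p = 0.00025). zic1, a zinc finger factor of the neural plate and its border, had 104, 110 and 73.4 TPM at stage 10.5, against 30.4, 36.0 and 30.5 TPM at stage 9 (1.14, SE 0.16, edgeR adjusted p = 0.0012). irx2, an Iroquois homeobox gene of the posterior neural plate, had 30.8, 43.2 and 41.2 TPM at stage 10.5, against 4.56, 9.18 and 4.77 TPM at stage 9 (2.84, SE 0.30, edgeR adjusted p = 0.00034). Every stage 10.5 library was above every stage 9 library in these 3.

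otx2, the homeobox gene of the forebrain and midbrain, was low, with 4.41, 11.0 and 6.33 TPM at stage 10.5, against 0.77, 0.99 and 0.89 TPM at stage 9 (3.32, SE 0.45, edgeR adjusted p = 0.001). rax, an eye field gene, was also near its lower limit, with 149 counts over the 3 libraries of stage 10.5 and 6 over those of stage 9, a ratio of 29.0 with a 95% exact interval of 13.0 to 80.2 for counting error alone. sox11 (1.08, SE 0.17, edgeR adjusted p = 0.0023) rose by about as much as zic1.

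The 3 that fell were zic2, foxd4l1.1 and gmnn. zic2 had 24.5, 35.9 and 35.1 TPM at stage 10.5, against 119, 165 and 121 TPM at stage 9 (-1.81, SE 0.18, edgeR adjusted p = 0.00029). foxd4l1.1, a forkhead factor that holds neural ectoderm immature, had 43.2, 65.1 and 50.5 TPM at stage 10.5, against 105, 154 and 209 TPM at stage 9 (-1.34, SE 0.27, edgeR adjusted p = 0.0081). zic1 and zic2 therefore moved in opposite directions, and at stage 9 zic2 had the higher TPM.

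**Figure D3:**
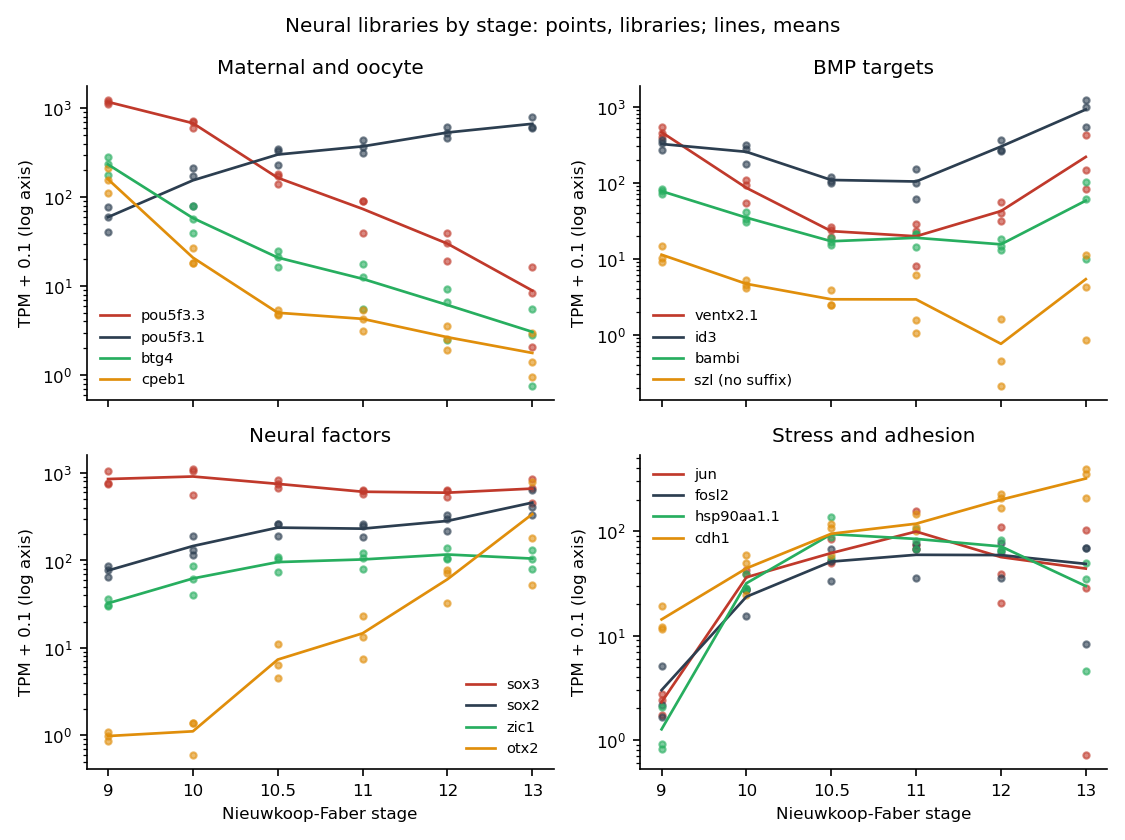
TPM + 0.1 on a log axis of 16 genes in neural libraries at 6 stages between 9 and 13, points for libraries and lines for means of 3. pou5f3.3, btg4 and cpeb1 decline through the series, and otx2 stays under 15 TPM on average up to stage 11. Of the BMP targets, ventx2.1 and id3 have their lowest mean at stage 11, and bambi and szl at stage 12.

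The later stages place the interval. Mean neural ventx2.1 was 460, 85.1, 22.9, 19.6, 42.1 and 217 TPM from stage 9 to stage 13 (9, 10 and 10.5, then 11, 12 and 13), so the level at stage 10.5 was close to the lowest of the series. id3 averaged 322, 254, 108, 103, 298 and 915 TPM over the same stages. otx2 averaged 0.88, 1.01, 7.26, 14.6, 60.9 and 339 TPM, and sox2 averaged 76.7, 146, 237, 231, 283 and 458 TPM. Most of the otx2 increase thus lay after stage 10.5, whereas the mean of sox2 at stage 10.5 was already close to those at stages 11 and 12. At stage 13 the neural libraries differed widely among themselves, with otx2 at 781, 51.9 and 183 TPM.

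Epidermal and non-neural ectoderm factors rose more often than they fell. Of 22 tested, 8 rose and 2 fell (14.2% and 14.7% of all genes), with a median of 0.73, and 12 were not called. In untreated epidermal explants 11 of the 22 rose and 0 fell (11.7% and 14.2% of all genes there). With the replicate block 14 rose and 2 fell in neural explants (24.1% and 23.8% of all genes). The forkhead genes foxi4.1 and foxi4.2 moved apart. foxi4.1 had 10.1, 13.3 and 12.7 TPM at stage 10.5, against 3.31, 2.11 and 2.50 TPM at stage 9 (3.46, SE 0.39, edgeR adjusted p = 0.00046). foxi4.2 had 37.0, 61.1 and 49.9 TPM at stage 10.5, against 245, 166 and 191 TPM at stage 9 (-1.74, SE 0.20, edgeR adjusted p = 0.00049). The grainyhead genes, activators of epidermal differentiation, also differed. grhl1 had 50.5, 61.1 and 36.2 TPM at stage 10.5, against 101, 108 and 107 TPM at stage 9 (-1.0, SE 0.14, edgeR adjusted p = 0.0013). grhl3 had 93.8, 154 and 173 TPM at stage 10.5, against 81.8, 94.9 and 134 TPM at stage 9 (0.69, SE 0.23, edgeR adjusted p = 0.053, and 4.4e-06 with the replicate block). Its groups overlapped, and replicate 1 was lowest and replicate 3 highest at both stages.

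tfap2a, the AP-2 factor of non-neural ectoderm and neural crest, had 345, 309 and 208 TPM at stage 10.5, against 308, 264 and 230 TPM at stage 9 (0.13, SE 0.19, edgeR adjusted p = 0.67). The epidermal keratin xk81a1 had 50.1, 56.7 and 15.9 TPM at stage 10.5, against 25.7, 14.6 and 11.5 TPM at stage 9, levels of its L copy alone (1.40 over both copies, SE 0.53, edgeR adjusted p = 0.093, and 0.0047 with the replicate block). foxi1, the ionocyte factor, had 1.14, 2.70 and 0.98 TPM at stage 10.5, against 1.39, 30.4 and 3.13 TPM at stage 9, where 1 library carried most of the signal (-2.76, SE 1.18, edgeR adjusted p = 0.13). Keratin krt5.7 rose (1.59, SE 0.23, edgeR adjusted p = 0.0017).

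Of 14 neural border and crest factors, 6 rose and 2 fell (14.2% and 14.7% of all genes), with a median of 0.92. pax3, a paired-box gene of the border, had 2.31, 2.91 and 1.83 TPM at stage 10.5, against 0.20, 0.24 and 0.17 TPM at stage 9 (3.93, SE 0.45, edgeR adjusted p = 0.00049). snai2, the crest gene Slug, had 214 counts over the stage 10.5 libraries and 6 over the stage 9 libraries, a ratio of 41.6 with a counting interval of 18.8 to 115. Both were at a few TPM at stage 10.5 and close to absent at stage 9. ets1, a crest and endothelial factor, had 10.4, 15.4 and 17.8 TPM at stage 10.5, against 72.0, 86.3 and 79.7 TPM at stage 9 (-2.08, SE 0.16, edgeR adjusted p = 0.00011).

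Genes of other germ layers were mostly at low levels. Of 11 dorsal Wnt and early Nodal genes, 2 fell (14.7% of all genes) and 9 were not called, and with the replicate block 3 fell and 1 rose (23.8% and 24.1%). The members that fell were lefty, a Nodal inhibitor, with 7.46, 7.32 and 7.00 TPM at stage 10.5, against 20.6, 49.1 and 29.5 TPM at stage 9 (-1.76, SE 0.32, edgeR adjusted p = 0.0042), and tdgf1.1, a Nodal co-receptor of the Cripto family, with 7.26, 22.5 and 23.3 TPM against 48.6, 88.4 and 92.0 TPM (-1.86, SE 0.41, edgeR adjusted p = 0.015). nodal3.1 had no count at stage 10.5, and at stage 9 it was seen in replicate 2 at 6.51 TPM and at 0 TPM in both others. sia1, a direct target of maternal Wnt signalling, was at 0 TPM in all 3 stage 10.5 libraries and at 0, 1.5 and 0.12 TPM at stage 9. Both had their highest level in stage 9 replicate 2.

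Of 16 organizer genes, 2 rose and 1 fell (14.2% and 14.7% of all genes), and with the replicate block 6 rose and 2 fell (24.1% and 23.8%). not, a homeobox gene of the notochord that is also in the early animal cap, had 95, 115 and 89.3 TPM at stage 10.5, against 201, 316 and 284 TPM at stage 9 (-1.10, SE 0.18, edgeR adjusted p = 0.0027). gsc, the organizer gene goosecoid, had 2.36, 4.53 and 6.48 TPM at stage 10.5, against 1.15, 2.44 and 3.09 TPM at stage 9 (1.12, SE 0.59, edgeR adjusted p = 0.19, and 0.013 with the replicate block). pkdcc.1, a secreted kinase, rose by 3.67 (SE 0.50, edgeR adjusted p = 0.001) to 4.96, 12.16 and 5.06 TPM.

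Of 24 mesoderm genes, 8 rose (14.2% of all genes) and 16 were not called, with a median of 2.68. The median was 1.98 when 6 genes averaging at most 3 counts at both stages were left out. Of the rest, genes with no count at 1 stage were then set at their bound. cdx1, a homeobox gene of the posterior body, had 17.2, 53.9 and 19.1 TPM at stage 10.5, against 1.34, 0.83 and 0.88 TPM at stage 9 (5.11, SE 0.42, edgeR adjusted p = 0.00013). pcdh8l, a protocadherin of the paraxial mesoderm, had 9.50, 19.2 and 7.80 TPM at stage 10.5, against 0.18, 0.28 and 1.77 TPM at stage 9 (4.48, SE 0.51, edgeR adjusted p = 0.00046). By TPM, replicate 2 was the highest in both at stage 10.5. The counts of pcdh8l at that stage did not follow, with 260, 193 and 157 for L and 103, 79 and 104 for S. The cardiac and skeletal muscle actin actc1 had 315 counts over the stage 10.5 libraries and 1 over the stage 9 libraries (ratio 367, counting interval 65.5 to 14550), and its level was 6.90, 16.1 and 4.80 TPM at stage 10.5. t, the pan-mesodermal Brachyury, had 1.01, 1.27 and 1.80 TPM at stage 10.5, against 0.64, 0.88 and 0.93 TPM at stage 9 (0.79, SE 0.51, edgeR adjusted p = 0.28).

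Of 17 endoderm genes, 5 rose and 6 fell (14.2% and 14.7% of all genes). The Mix-type homeobox gene bix1.1, a target of VegT, had 0.59, 1.34 and 1.36 TPM at stage 10.5, against 9.92, 19.5 and 13.7 TPM at stage 9 (-3.65, SE 0.49, edgeR adjusted p = 0.001). a2m, a protease inhibitor, had 15, 67.9 and 52.3 TPM at stage 10.5, against 1.80, 2.39 and 4.71 TPM at stage 9 (4.12, SE 0.65, edgeR adjusted p = 0.0058). sox17a, the endoderm determinant, had 4.1, 13.2 and 7.19 TPM at stage 10.5, against 10.9, 20.8 and 10.8 TPM at stage 9 (-0.61, SE 0.45, edgeR adjusted p = 0.34, and 0.0086 with the replicate block). Of 4 blood genes tested, 1 fell, lmo2 (-2.68, SE 0.79, edgeR adjusted p = 0.036), and its call was lost without stage 9 replicate 2 or 3 or stage 10.5 replicate 1 or 2 (edgeR adjusted p up to 0.12).

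Signalling genes changed in both directions. Of 18 FGF pathway genes, 3 rose and 3 fell (14.2% and 14.7% of all genes). The receptor fgfr2 had 36.7, 70.1 and 33.3 TPM at stage 10.5, against 11.2, 10.0 and 9.18 TPM at stage 9 (3.09, SE 0.25, edgeR adjusted p = 0.00013). fgfr1 had 12.3, 12.3 and 13.3 TPM at stage 10.5, against 57, 60 and 53.3 TPM at stage 9 (-1.90, SE 0.14, edgeR adjusted p = 0.0001). The receptors changed places in order: fgfr1 had the higher TPM at stage 9 and fgfr2 at stage 10.5. Of the feedback inhibitors, spry2 fell by 1.11 (SE 0.15, edgeR adjusted p = 0.0012), and dusp6, the ERK phosphatase, had 38.0, 40.5 and 31.2 TPM at stage 10.5, against 26.2, 29.7 and 21.4 TPM at stage 9 (0.75, SE 0.18, edgeR adjusted p = 0.015). The dusp6 call was lost without stage 9 replicate 3 (edgeR adjusted p = 0.055).

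Of 31 Wnt pathway genes, 9 rose and 4 fell (14.2% and 14.7% of all genes). The ligand wnt5b had 17.4, 14.1 and 13.1 TPM at stage 10.5, against 3.34, 2.22 and 1.66 TPM at stage 9 (3.09, SE 0.38, edgeR adjusted p = 0.00066). fzd7, the abundant Frizzled receptor of the early embryo, had 195, 273 and 259 TPM at stage 10.5, against 207, 214 and 196 TPM at stage 9, with 1 stage 10.5 library below every stage 9 library and the others above (0.51, SE 0.11, edgeR adjusted p = 0.0096). wnt7a had 46 counts over the stage 10.5 libraries and none over the stage 9 libraries, at least 5.11-fold higher against a floor of 3 counts per library. Of 20 Notch pathway genes, 6 rose and 2 fell (14.2% and 14.7%), among them the receptor notch3 (1.47, SE 0.24, edgeR adjusted p = 0.0026). Of 13 retinoic acid genes, 3 rose and 2 fell (14.2% and 14.7%). Among them rdh10, which makes retinal, had 104, 117 and 86.5 TPM at stage 10.5, against 73.6, 63.4 and 57.2 TPM at stage 9 (0.91, SE 0.15, edgeR adjusted p = 0.0023), and the receptor rxrg fell by 1.73 (SE 0.31, edgeR adjusted p = 0.0039).

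Immediate early and stress genes had the largest share of higher genes of the 20 lists. Of 23 tested, 15 rose and 2 fell (14.2% and 14.7% of all genes), with a median of 1.87. jun, the AP-1 subunit, had 84.1, 49.0 and 51.4 TPM at stage 10.5, against 1.62, 2.68 and 2.30 TPM at stage 9 (5.22, SE 0.33, edgeR adjusted p = 8.1e-05). fosl2, another AP-1 subunit, had 33.5, 51.9 and 67.5 TPM at stage 10.5, against 1.56, 2.08 and 5.05 TPM at stage 9 (4.50, SE 0.39, edgeR adjusted p = 0.00021). hsp90aa1.1, a chaperone, had 137, 55.5 and 87.2 TPM at stage 10.5, against 1.96, 0.82 and 0.71 TPM at stage 9 (6.92, SE 0.57, edgeR adjusted p = 0.0003). All 3 were already higher at stage 10 than at stage 9, jun by 4.23 (edgeR adjusted p = 0.00098), fosl2 by 3.06 (edgeR adjusted p = 0.015) and hsp90aa1.1 by 5.22 (edgeR adjusted p = 0.003). The means of fosl2 and hsp90aa1.1 rose in epidermal explants too, to 40.7 and 62.2 TPM at stage 10.5 from 1.87 and 2.08 TPM at stage 9. Mean jun stayed low there, at 4.60 TPM against 1.72 TPM. The members that fell were egr1, an immediate early zinc finger factor, and hspa5, the chaperone of the endoplasmic reticulum. In untreated epidermal explants 6 of the 23 rose and 5 fell (11.7% and 14.2% of all genes there). The change differed between the lineages for 1 member, jund, and for 0.0473% of all genes. In endoderm explants 13 rose and 4 fell (16.3% and 16.6% of all genes there). In ventral mesoderm explants 7 rose and 2 fell (11.4% and 12.1%).

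Of 20 cadherin, claudin and matrix genes, 8 rose and 1 fell (14.2% and 14.7% of all genes). E-cadherin, cdh1, had 107, 116 and 59.3 TPM at stage 10.5, against 19.1, 11.3 and 12.1 TPM at stage 9 (3.04, SE 0.32, edgeR adjusted p = 0.00049). N-cadherin, cdh2, which later marks the neural plate, was at 0.42, 0.75 and 0.50 TPM at stage 10.5, against 0.13, 0.20 and 0.02 TPM at stage 9 (2.23, SE 0.72, edgeR adjusted p = 0.048, a call kept only without stage 9 replicate 2). The gene that fell was the integrin itga5 (-1.62, SE 0.19, edgeR adjusted p = 0.00056), which binds fibronectin. Of 20 chromatin and DNA methylation enzymes, 5 rose and 6 fell (14.2% and 14.7%). ep300, a histone acetyltransferase, had 47.7, 46.6 and 39.0 TPM at stage 10.5, against 19.8, 10.4 and 13.4 TPM at stage 9 (2.17, SE 0.27, edgeR adjusted p = 0.001). hdac2, a histone deacetylase, had 3.72, 8.01 and 4.75 TPM at stage 10.5, against 33.0, 55.1 and 20.9 TPM at stage 9 (-2.46, SE 0.42, edgeR adjusted p = 0.004).

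Over all genes with at least 10 TPM in 1 of the stages, the largest rises were in genes close to absent at stage 9. unc93a had 12.53, 15.7 and 15.3 TPM at stage 10.5, against 0, 0 and 0.06 TPM at stage 9, and its 488 counts against 1 gave a ratio of 569 with a counting interval of 102 to 22520. The complement gene c3 had 9.99, 25.2 and 13.2 TPM at stage 10.5, against 0, 0.13 and 0.02 TPM at stage 9, and by counts over the libraries the ratio was 354 with a counting interval of 179 to 820. lhx3, a LIM homeobox gene of motor neurons and pituitary, had 19.0, 37.8 and 44.8 TPM at stage 10.5, against 0.62, 0.24 and 1.17 TPM at stage 9 (6.2, SE 0.57, edgeR adjusted p = 0.00031). wfdc2, a secreted protease inhibitor, had 10.2, 17.3 and 9.69 TPM at stage 10.5, against 0.15, 0.15 and 0.11 TPM at stage 9 (6.2, SE 0.41, edgeR adjusted p = 8.1e-05). The other genes of the top 10 were pcolce, inpp5e, pnliprp1, hsp90aa1.1, hamp2 and fxyd1, and fxyd1 had 33 counts at stage 10.5 and none at stage 9 while its TPM was 9.89, 8.34 and 14.2 at stage 10.5 against 8.21, 7.5 and 6.69 at stage 9, so its counts and its levels differ. The fxyd1 call was lost without stage 9 replicate 2 or stage 10.5 replicate 1 or 3 (edgeR adjusted p up to 0.082).

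The largest falls were in messages abundant at stage 9. Beside cpeb1, ccnb5, ventx2.1 and ventx2.2 they included btg5.1, akip1, plbd2, and the entries cdca7 and ndst2 without L or S suffix. cdca7, a cell division gene, had 35.4, 24.9 and 35.8 TPM at stage 10.5, against 495, 689 and 464 TPM at stage 9 (-3.99, SE 0.20, edgeR adjusted p = 2.7e-05). btg5.1 had 4.19, 5.84 and 4.45 TPM at stage 10.5, against 66.9, 136 and 101 TPM at stage 9 (-4.53, SE 0.35, edgeR adjusted p = 0.00013). The stages lay far apart in both.

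The next comparison asks where the neural change differs from that of untreated explants, which become epidermis. At stage 9, neural and epidermal explants differed in 1 of 21146 genes (0.00473%) by edgeR, and 1798 had an unadjusted p under 0.05. That gene, strip2, had 4.62, 9.08 and 7.93 TPM in neural explants, against 0.16, 0.06 and 0.10 TPM in epidermal explants (6.14, SE 0.51, edgeR adjusted p = 0.041), and was named after its values were seen. It was still apart at stage 10.5, with 1.53, 5.02 and 4.05 TPM in neural explants, against 0.06, 0.09 and 0.06 TPM in epidermal explants. At stage 10.5, 24 genes were higher and 22 lower in neural than in epidermal explants (0.113% and 0.104%).

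The change between stages itself differed in 10 genes (0.0473%), 1 higher and 9 lower in neural explants (0.00473% and 0.0426%), with 744 at an unadjusted p under 0.05. In epidermal explants alone 25.9% of genes changed over the interval and in neural explants 28.9%. With the replicate block the changes differed in 130 genes (0.615%). Leaving out 1 library gave counts between 5 (without epidermal stage 9 replicate 2 or 3, epidermal stage 10.5 replicate 3 or neural stage 10.5 replicate 1) and 18 (without epidermal stage 9 replicate 1).

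The 9 lower ones include 4 of the 23 BMP target genes tested, ventx2.1, ventx2.2, ventx1.2 and bambi. ventx2.1 had 1023, 692 and 770 TPM in epidermal explants at stage 10.5 and 482, 238 and 258 TPM at stage 9, a log2 rise of 1.65 (SE 0.33, edgeR adjusted p = 0.013). The neural change was lower by 5.94 (SE 0.39, edgeR adjusted p = 9.7e-05). ventx2.2 rose by 2.96 in epidermal explants, and the difference was -6.99 (SE 0.68, edgeR adjusted p = 0.0031). szl, whose product Sizzled inhibits the proteases that cut Chordin, had 3.74, 2.33 and 2.37 TPM in neural explants at stage 10.5, against 334, 56.1 and 143 TPM in epidermal explants, and the changes differed by -6.26 (SE 0.83, edgeR adjusted p = 0.025) in its entry without suffix. The fold changes of ventx2.1, ventx2.2, ventx1.2 and bambi were thus below 0 in neural explants and above 0 in epidermal ones. xvent-2b, a further Ventx gene, was at 207, 164 and 208 TPM in neural explants at stage 10.5, against 404, 467 and 490 TPM in epidermal explants (difference of changes -2.0, SE 0.20, edgeR adjusted p = 0.0029).

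**Figure D4:**
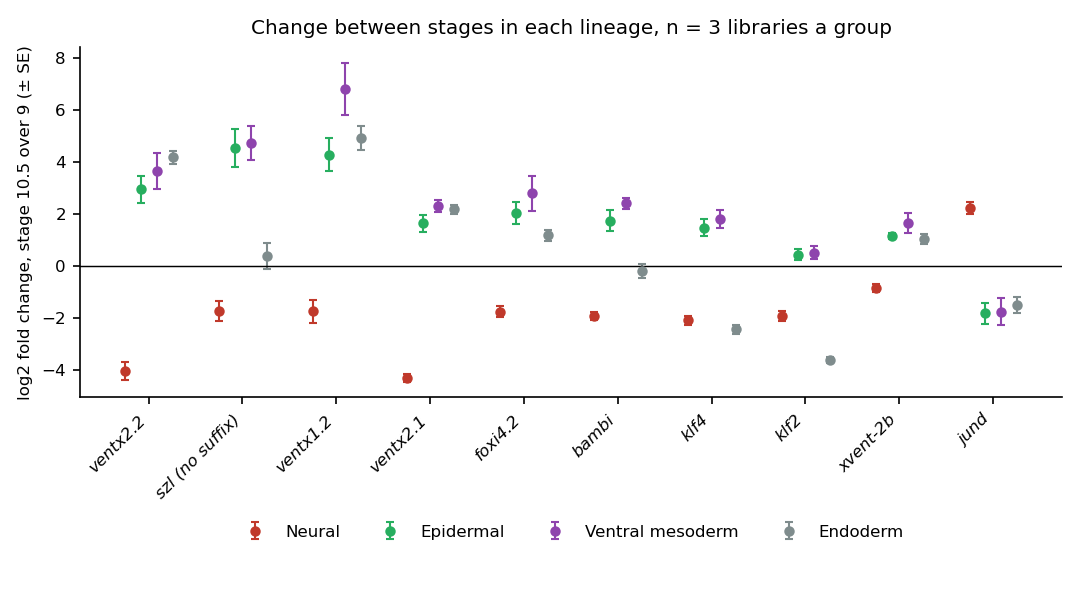
Log2 fold change of stage 10.5 over stage 9 in neural, epidermal, ventral mesoderm and endoderm explants for the 10 genes whose change differed between neural and epidermal explants, points with SE (n = 3 libraries a group). The neural value is below 0 for 9 genes and above 0 for jund alone, with the epidermal value on the other side of 0 in all 10. These values are from counts, and by TPM klf4 fell in epidermal and ventral mesoderm explants too.

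foxi4.2 had 37.0, 61.1 and 49.9 TPM in neural explants at stage 10.5, against 1292, 583 and 900 TPM in epidermal explants (difference of changes -3.79, SE 0.52, edgeR adjusted p = 0.034). klf2, a Krüppel-like factor, fell in neural explants by 1.92 and was not called in epidermal ones (0.46), with a difference of -2.37 (SE 0.32, edgeR adjusted p = 0.021). klf4, another such factor, is given in counts because its TPM went the other way in epidermal explants. It had 304, 254 and 243 counts in neural explants at stage 10.5 and 1405, 1348 and 1331 at stage 9, against 3391, 1516 and 2914 counts in epidermal explants at stage 10.5 and 1223, 1101 and 1006 at stage 9 (difference of changes -3.56, SE 0.38, edgeR adjusted p = 0.0032). Its TPM in epidermal explants were 0.71, 2.59 and 0.90 at stage 10.5 and 15.3, 15.4 and 34.6 at stage 9, so the deposited counts and TPM disagree on this gene. The calls of bambi, klf2, szl, ventx1.2 and foxi4.2 held in 2 to 5 of the 12 fits that leave out 1 library, and all 5 were lost without epidermal stage 9 replicate 2 or 3, epidermal stage 10.5 replicate 3, neural stage 9 replicate 1 or 3, or neural stage 10.5 replicate 1 or 2 (adjusted p up to 0.21).

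The 1 gene with a higher neural change was jund, an AP-1 subunit, with 18.8, 19.5 and 20.2 TPM in neural explants at stage 10.5, against 1.46, 2.46 and 2.1 TPM in epidermal explants (difference of changes 4.08, SE 0.48, edgeR adjusted p = 0.0076). jun had 84.1, 49.0 and 51.4 TPM in neural explants at stage 10.5, against 3.21, 5.27 and 5.31 TPM in epidermal explants, and this difference at stage 10.5 passed the test (4.02, SE 0.33, edgeR adjusted p = 0.0018) while that of its changes did not (3.75, SE 0.65, edgeR adjusted p = 0.1). Further stress and early response genes were among the 24 higher at stage 10.5, btg2, egr1, egr2, atf3 and dusp1, picked after their values were seen. Of these, egr1 fell between the neural stages. hsp90aa1.1 and fosl2 were not among the 24, with means of 93.4 and 51.0 TPM in neural explants, against 62.2 and 40.7 TPM in epidermal explants. The medium differed between these lineages as well as Noggin, and their parts cannot be told apart. Among the neural factors, sox2 had 191, 260 and 261 TPM in neural explants at stage 10.5, against 228, 353 and 344 TPM in epidermal explants (-0.30, edgeR adjusted p = 0.57). foxd4l1.1 was higher, with 43.2, 65.1 and 50.5 TPM in neural explants, against 4.15, 13.0 and 8.55 TPM in epidermal explants (2.54, SE 0.36, edgeR adjusted p = 0.036). At stage 9 foxd4l1.1 had 105, 154 and 209 TPM in neural explants, against 33.1, 50.8 and 83.15 TPM in epidermal explants (1.56, SE 0.39, edgeR adjusted p = 0.43). The difference of its changes did not pass the test. The change of sox2 differed between the lineages by -0.19 (SE 0.31, edgeR adjusted p = 1.0). id3 was lower at stage 10.5, with 99.5, 120 and 105 TPM in neural explants, against 1445, 1015 and 1121 TPM in epidermal explants (-3.47, SE 0.21, edgeR adjusted p = 0.00017).

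Against ventral mesoderm explants, which received BMP4/7, the neural change differed in 133 genes (0.629%), 22 higher and 111 lower (0.104% and 0.525%), and with the replicate block in 514 (2.43%), of which 367 (1.74%) were lower. Of the 23 BMP target genes, 11 had a lower change in neural explants, while in ventral mesoderm 19 of them rose (11.4% of all genes did). This rise was not particular to BMP4/7 explants. In epidermal explants 17 of the 23 rose and in endoderm explants 16 (11.7% and 16.3% of all genes there). The number that fell was 1 in ventral mesoderm, 0 in epidermal and 1 in endoderm explants (12.1%, 14.2% and 16.6% of all genes). bambi had 15.1, 16.6 and 18.6 TPM in neural explants at stage 10.5, against 262, 391 and 390 TPM in ventral mesoderm explants (difference of changes -4.32, SE 0.26, edgeR adjusted p = 5e-06). ventx1.1 had 4.96, 5.90 and 7.99 TPM in neural explants at stage 10.5, against 81.7, 352 and 415 TPM (difference -8.66, SE 0.98, edgeR adjusted p = 0.0031). stard13 fell in neural explants and rose in ventral mesoderm (difference -4.70, SE 0.49, edgeR adjusted p = 0.0023). cebpb, a C/EBP factor, went the other way, with 28.1, 28.9 and 44.0 TPM in neural explants at stage 10.5, against 3.29, 2.25 and 4.22 TPM in ventral mesoderm (difference 3.55, SE 0.43, edgeR adjusted p = 0.0031). The ventral mesoderm libraries were sequenced on another instrument, and the lineage and the instrument cannot be told apart. Leaving out 1 library moved the count to between 43 (without neural stage 10.5 replicate 3) and 289 (without ventral mesoderm stage 9 replicate 2).

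Against endoderm explants, which received Activin, the neural change differed in 632 genes (2.99%), 274 higher and 358 lower (1.3% and 1.69%), and with the replicate block in 1751 (8.28%), of which 810 (3.83%) were lower. Of 17 endoderm genes 11 were lower, of 16 organizer genes 10 and of 24 mesoderm genes 8. vegt had 137, 150 and 137 TPM in neural explants at stage 10.5, against 2012, 2299 and 2390 TPM in endoderm explants (difference of changes -4.06, SE 0.18, edgeR adjusted p = 1.3e-07). gata6, an endodermal GATA factor, had 0.69, 0.46 and 0.49 TPM in neural explants, against 66.1, 72.6 and 70.5 TPM in endoderm explants (difference -8.35, SE 0.41, edgeR adjusted p = 2e-07). BMP targets differed here too, 10 of 23 lower. ventx2.1, which fell in neural explants, was at 711, 658 and 580 TPM in endoderm explants at stage 10.5 and at 173, 135 and 200 TPM at stage 9 (difference -6.45, SE 0.23, edgeR adjusted p = 2.1e-08). spry2 had 30.4, 28.2 and 33.5 TPM in neural explants at stage 10.5, against 179, 187 and 190 TPM in endoderm explants (difference -3.74, SE 0.17, edgeR adjusted p = 1.3e-07). ventx2.1 was thus lower in its neural change than in each of the 3 other lineages.

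L and S copies did not always move alike. Of 5509 homeolog pairs tested with limma on the log2 ratio of L to S counts, 717 (13.0%) changed, 382 toward L (6.93%) and 335 toward S (6.08%), and with the replicate block 1245 (22.6%). Among the pairs called, both copies moved the same way in 112, opposite ways in 62, only the L copy was called in 247, only the S copy in 229 and neither in 67. The median absolute change of the log2 ratio was 1.69 in called pairs and 0.46 in all pairs. Without any 1 library the count fell to between 248 (without stage 9 replicate 2) and 368 (without stage 10.5 replicate 3). Reads shared by near-identical copies can be credited to either, so the split between copies is uncertain.

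The largest changes were mostly pairs with 1 nearly silent copy at stage 9. fibcd1.L had 66, 78 and 158 counts at stage 10.5, against 0, 1 and 0 at stage 9, while fibcd1.S had 61, 135 and 429 at stage 10.5, against 89, 209 and 525 at stage 9 (log2 ratio change 6.71, SE 0.80, limma adjusted p = 0.011). pts.S, of the tetrahydrobiopterin pathway, had 163, 116 and 205 counts at stage 10.5, against 2, 0 and 2 at stage 9, while pts.L had 35, 72 and 101, against 31, 88 and 103 (-6.30, SE 0.85, limma adjusted p = 0.013). irf8.S, an interferon regulatory factor, had 296, 437 and 378 counts at stage 10.5, against 6, 11 and 12 at stage 9, while irf8.L had 118, 132 and 100, against 226, 305 and 148 (-6.05, SE 0.43, limma adjusted p = 0.0063). The appearing copy was thus S in 2 of these and L in fibcd1, and it was L again in fam124b. In tmem116 the L copy fell instead, with 38, 22 and 64 counts at stage 10.5, against 677, 1101 and 702 at stage 9. Its call held in 1 of 6 fits without 1 library, the fit without stage 9 replicate 3, which had the 9 S counts of that stage. Among the BMP targets, ventx2.1.L fell by 6.18 (SE 0.30) and ventx2.1.S by 3.74 (SE 0.14), with edgeR adjusted p of 3.3e-05 for L and 1.5e-05 for S.

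**Figure D5:**
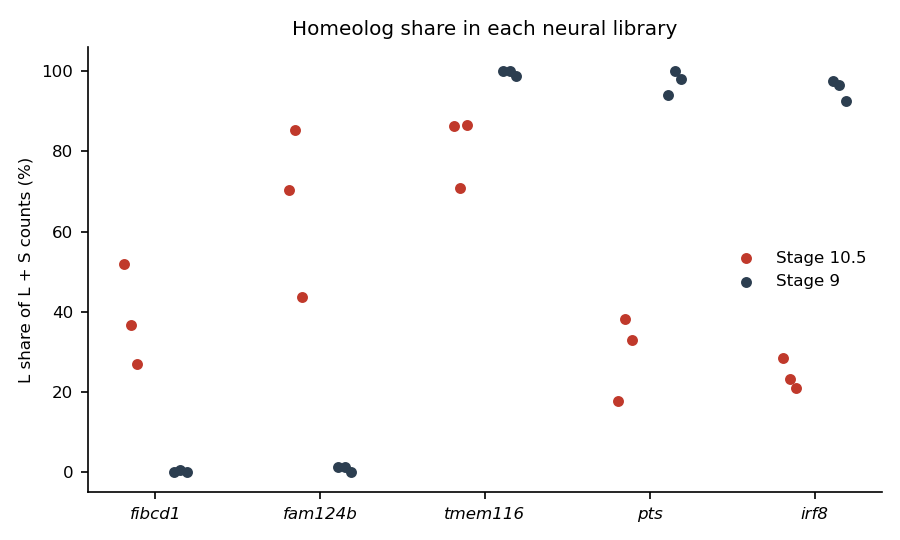
Share of the L copy in the L + S counts (%) of the 5 homeolog pairs with the largest change of ratio, in each neural library of stage 10.5 (red, left) and stage 9 (dark, right). At stage 9 every pair sits within 10% of 0 or 100%, and at stage 10.5 every library has moved away from that end.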

How the data were processed

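RNA was sequenced from pools of explants. Per the labels and the study's methods, the deposited counts are raw reads per gene made by the authors with STAR 2.6.0 on the X. laevis 9.2 genome, with no normalization, and the deposited TPM were made by the authors with RSEM, which scales by transcript length and depth. The ventral mesoderm libraries came from another sequencing instrument than the rest.

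A gene entered the tests when any of the 74 libraries held 15 or more of its counts, 27424 with L and S apart and 21146 with L and S counts summed. The 2550 entries without suffix that share a symbol with an L or S copy were kept apart, and such copies share reads. The main test was edgeR 4.0.16 (TMM, robust quasi-likelihood) fitted to the libraries being compared only, its p-values adjusted after Benjamini-Hochberg over the whole table, with a threshold of 0.05. Differences of change between lineages were interaction terms of the same model, and L to S ratios were tested with limma 3.58.1. Standard errors were derived from the fold change and its F statistic. TPM levels were matched by symbol or RefSeq synonym, and 705 tested genes had none. With at least 600 counts over the 6 libraries, 10548 genes had both, and 120 of them (1.14%) changed by over 1 log2 unit more or less in counts than in TPM, beside a median shift of 0.20. Ratios of counts have a 95% exact interval, and floors are 3 counts per library. Both cover counting error only.

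Same-numbered stage 10.5 and stage 9 libraries deviated together from their group means (r = 0.744, 0.728 and 0.771, differently numbered ones -0.427 to -0.328, over 17573 genes), so the numbers were taken to pair the libraries, although the labels do not say what a number marks. The fit with the replicate block was an alternative, as were DESeq2 1.42.0, other normalization and filters, equal depth, limma on TPM, all 18 neural libraries, and leaving out each library. P-values measure the spread between these pools, which may be technical in part.

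Genes named are the key genes of 20 lists, up to 4 further called members per list with the largest change and those that complete a count, the 10 largest changes each way with at least 10 TPM in a stage, the 10 smallest adjusted p of each lineage difference, and the 5 largest changes of L to S ratio. Others were named after their values were seen, among them strip2, and btg2, egr1, egr2, atf3, dusp1, id3, jun and foxd4l1.1 as differences between lineages at stage 10.5. The members and lists were chosen with earlier results of these data known. The tests were tested on simulated data. Some genes that the rule names are not reported here.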

Additional observations from a re-analysis of the deposited data

Results flagged for a closer look

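The change between stages was tested for a difference between neural explants and each other lineage, and the 10 genes with the smallest adjusted p per lineage are given here as neural change minus the other lineage's change, on the log2 scale. Against epidermal explants the differences were -6.99 for ventx2.2, -6.26 for szl without suffix, -6.02 for ventx1.2, -5.94 for ventx2.1, -3.79 for foxi4.2, -3.66 for bambi, -3.56 for klf4, -2.37 for klf2, -2.0 for xvent-2b and 4.08 for jund. Against ventral mesoderm explants they were -8.66 for ventx1.1, -6.60 for ventx2.1, -6.46 for szl without suffix, -4.70 for stard13, -4.32 for bambi, -3.88 for klf4, -3.32 for gfod1 without suffix, -2.69 for nudt22, -2.47 for hs3st1 and 3.55 for cebpb. Against endoderm explants they were -8.35 for gata6, -7.34 for slc38a2, -7.02 for cass4, -6.45 for ventx2.1, -5.78 for stard13, -4.94 for lpar2, -4.11 for cxcr4, -4.06 for vegt, -3.74 for spry2 and 3.95 for cr1b. Each passed edgeR's interaction test. For klf4 the counts and TPM disagree in ventral mesoderm explants as in epidermal ones. Its ventral mesoderm TPM were 1.67, 0.63 and 1.58 at stage 10.5, against 12.3, 8.5 and 13.9 at stage 9. The own neural change of slc38a2 was lost as a call without any 1 of the 6 neural libraries (edgeR adjusted p up to 0.11). Groups of 3 libraries were not tested for a single library far from the others.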

How the results depend on the processing

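No called change of a named gene turned its direction under the alternatives run, but the balance of calls did. For the lineage differences these alternatives used counts alone. By TPM, klf4 fell in epidermal and ventral mesoderm explants too. Against 3895 genes higher and 4027 lower, DESeq2 gave 4617 and 4417, its size factors 4161 and 3819, and the fit of all 18 neural libraries 3612 and 2862, and against endoderm 274 higher and 358 lower became 941 and 810 with the replicate block. The median log2 fold change of 0.09 was -0.08 on TPM. With the replicate block 6585 genes rose and 6523 fell with L and S apart, 10143 changed with L and S summed, the steps to stages 10 and 10.5 had 6946 and 8249 genes, the lineage differences had 130 (epidermal), 514 (ventral mesoderm) and 1751 genes (endoderm), and 1245 homeolog ratios changed. limma on log2(TPM + 1) gave 2561 genes higher and 4941 lower. DESeq2 gave 2584 and 2145 genes for the steps and 82, 456 and 1092 for the lineage differences. Leaving out 1 library gave 2569 to 2992 genes higher, 2960 to 3437 lower, 4304 to 4895 with L and S summed, 23 to 1151 and 7 to 28 for the steps, 5 to 18, 43 to 289 and 439 to 580 for the lineage differences, and 248 to 368 homeolog pairs. The cause was not tested. Of 149 named genes 128 were called, 104 of them in every fit without 1 library, and 2 (ccna1 and dand5) lost the call with the replicate block. With 3 libraries a group, edgeR recovered 71.8% of simulated 4-fold and 23.3% of 2-fold changes between stages with L and S apart, so a gene not called can still have changed, and counts near the floor limit genes with few reads. The simulation changed 110 genes 4-fold and 90 genes 2-fold of 26938, with unpaired libraries, unlike the data. Unchanged genes called in it numbered 15 with edgeR, 34 with the replicate block and 80 with DESeq2, so the larger counts of DESeq2 may hold more false calls. Without pairing in the simulation, it cannot tell how many of the calls added by the replicate block are false.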
